A study of Mus musculus with 6 samples.

Results

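The genes described here are Lif and the other cytokines and receptors of the IL-6 family, with the feedback inhibitor Socs3. They are 10 of the 22377 genes in a table of RNA sequencing counts from tumor-associated macrophages (TAMs), the macrophages that live inside a tumor. The members are the cytokines Lif, Osm, Il6, Il11 and Clcf1, the receptor chains Il6st, Il6ra, Lifr and Osmr, and Socs3, and each was found in the table by its symbol. They were put forward with the wt against ko differences of these same libraries known, so those differences are given as a description and support nothing. All 10 were in the table and 9 passed the filter on low counts, as did 13884 genes in all. Il11 did not pass, and its counts are given without a fold change.

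The series asks which genes depend on NPM1, a nucleolar protein that also acts as a cofactor of transcription factors, in macrophages of mouse tumors. It holds 6 libraries, 3 labelled wt and 3 labelled ko, each a separate biosample by its label although a heatmap of the study shows fewer mice a group, and the treatment label of the ko libraries reads knockdown. In the study's methods the only RNA sequencing groups are Npm1+/+ mice and Npm1+/- mice, which carry 1 disrupted Npm1 allele in every cell and not in macrophages alone. LLC, a Lewis lung carcinoma line of the mouse, was grown in young mice of both sexes, and both groups carried this same tumor line. The methods describe macrophages sorted as CD45+ CD11b+ F4/80+ cells, with amplified cDNA libraries, whereas the labels name whole tumor tissue, TRIzol and a small RNA library, and the 2 accounts were not reconciled. The groups are called wt and labelled ko here, because Npm1 mRNA itself was not lower under the ko label, at 142, 380.2 and 381 CPM (counts scaled to a common library total) in wt replicates 1, 2 and 3 and 441, 499 and 343 CPM in the libraries labelled ko. Ccrl2, the chemokine receptor-like gene named in the title of the series, read 831, 1494 and 1162 CPM in wt and 665, 471 and 783 CPM in labelled ko, with no overlap of the groups (log2 fold change -0.86, SE 0.26).

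Cytokines of the IL-6 family signal through gp130, the protein made from Il6st, which every receptor complex named here contains. IL-6 first binds IL-6R alpha (Il6ra) and then joins a pair of gp130 chains, LIF joins gp130 to the LIF receptor (Lifr), and mouse oncostatin M (Osm) joins gp130 mainly to the OSM receptor chain (Osmr). The complexes activate JAK kinases and the transcription factor STAT3, STAT3 induces Socs3, and SOCS3 protein binds gp130 and shuts the JAK kinases off. In tumors IL-6, LIF and OSM are known as products of macrophages and of stromal cells, and LIF is known for acting on tumor cells and on macrophages themselves.

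In GRCm38, Lif lies at chr11:4257557-4272514 and Osm just before it at chr11:4236420-4241026, both on the plus strand, with 16530 bases and 0 protein-coding genes between them. The receptor genes Osmr (chr15:6813577-6874969, minus strand) and Lifr (chr15:7090614-7197489, plus strand) are likewise neighbors, 215644 bases apart with 0 protein-coding genes between. Il6 is at chr5:30013114-30019981, Il6st at chr13:112464070-112510086, Il6ra at chr3:89864059-89913196 and Socs3 at chr11:117966079-117970047. The annotation places another protein-coding gene, AC109138.7, over Clcf1 (chr19:4214238-4223490) on the same strand, and an antisense gene, Gm42809, over Il6ra. How the counting treated strand and shared reads is not given in the sources used here, so the values of Clcf1 and Il6ra may hold reads of those genes.

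The promoter windows of Lif, Il6 and Socs3 are shown because these are the cytokine the set is named for, its best known relative and the feedback gene of the pathway. Each runs from 250 bases before to 50 bases after the RefSeq start site, in GRCm38.p6, printed 5′ to 3′ on the gene's own strand. They are chr11:4257318-4257617 (plus strand) for Lif, chr5:30012864-30013163 (plus strand) for Il6 and chr11:117969317-117969616 (minus strand) for Socs3. The Socs3 window falls inside the gene as GENCODE draws it, since the 2 annotations start Socs3 at different bases. Capitals mark a match to 1 of 3 motifs, searched on both strands. These were TTCNNNGAA, read by STAT factors, TGANTCA, a loose form of the AP-1 site with any middle base, and GGGANTTTC, read by NF-kB. No 2 marked matches overlap.
Lif: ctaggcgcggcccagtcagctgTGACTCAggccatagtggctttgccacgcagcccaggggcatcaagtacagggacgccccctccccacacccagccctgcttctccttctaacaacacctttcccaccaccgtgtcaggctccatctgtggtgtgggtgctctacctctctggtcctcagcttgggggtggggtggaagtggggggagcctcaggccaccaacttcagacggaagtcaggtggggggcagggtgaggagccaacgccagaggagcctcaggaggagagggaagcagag
Il6: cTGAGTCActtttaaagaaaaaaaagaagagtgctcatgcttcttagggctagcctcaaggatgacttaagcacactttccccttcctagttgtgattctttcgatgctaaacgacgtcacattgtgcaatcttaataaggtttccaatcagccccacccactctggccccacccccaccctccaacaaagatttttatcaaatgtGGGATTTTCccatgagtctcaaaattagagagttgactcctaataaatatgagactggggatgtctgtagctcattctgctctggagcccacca
Socs3: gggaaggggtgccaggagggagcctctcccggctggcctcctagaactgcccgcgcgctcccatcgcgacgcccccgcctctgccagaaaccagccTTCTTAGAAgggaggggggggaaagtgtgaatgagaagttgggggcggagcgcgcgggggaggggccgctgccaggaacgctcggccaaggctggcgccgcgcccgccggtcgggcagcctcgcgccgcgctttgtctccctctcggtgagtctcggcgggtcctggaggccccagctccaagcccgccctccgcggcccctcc
The Lif window held TGACTCA with its first base at -228, counted from the start site as 1. The Il6 window held TGAGTCA at -249 and GGGATTTTC at -44, and the Socs3 window held TTCTTAGAA at -154. Of the 10 windows of the 8 members that have one, 1 held the STAT motif, 4 the AP-1 motif (Il6, Il11, Lif and, as TGATTCA, Osmr) and 1 the NF-kB motif. Among all 32851 mouse promoter windows of this length the shares were 8.30%, 7.81% and 1.11%. These are matches of letters and not sites of binding, and Osm and Clcf1 had no window.

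The ends of the mRNAs differ among the cytokines in a feature that is known to mark short-lived messages, the AU-rich nonamer TTATTTATT. In the longest annotated 3′ UTR of each gene it was found 2 times in Lif, 2 times in Clcf1 and 5 times in Il11, overlapping matches included, and 0 times in Osm, Il6, the 4 receptors and Socs3. The shorter core ATTTA was found 7 times in Lif, 6 times in Osm and 10 times each in Il6 and Il11. Per kilobase of 3′ UTR that was 2.2 in Lif, 5.88 in Osm, 5.98 in Il6 and 8.35 in Il11, with 4.32 in Clcf1, so Lif had the lowest density of the cytokines. Of 12246 tested genes with an annotated 3′ UTR, 8.13% held at least 1 copy of the nonamer and 1.77% at least 2. These shares are not matched for length, since the median 3′ UTR of those genes was 1163 bases and that of Lif 3183. The first copy of each gene is shown in capitals with the bases around it, from the GENCODE transcripts.
Lif: aggggcctTTATTTATTatttaaaa
Clcf1: attaatatTTATTTATTtggagatg
Il11: accagatcTTATTTATTtatttatt

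Between 36550775 and 38147320 reads were counted per library. A gene with no counted reads may still have an expected count of up to 3, or 0.0716 to 0.0846 CPM. On a first principal component with 68.0% of the variance, wt replicate 1 stood apart at -108 against -4.54 to 52.0 for the other libraries. The estimates of the members, and the counts of the pathway lists that it moves, are therefore also given without wt replicate 1. The macrophage markers Lyz2, Csf1r and Adgre1 were present in each library. The 12 macrophage markers summed to 21866, 17567 and 16460 CPM in wt and 12535, 9764 and 16249 CPM in labelled ko, with all 12 estimates lower in labelled ko. In these bulk libraries, fewer cells of a type and less RNA per cell cannot be told apart. The 9 neutrophil markers summed to 1924, 1890 and 2108 CPM in wt and 1610, 838 and 1589 CPM in labelled ko. The 15 fibroblast markers summed to 52.9, 599 and 362 CPM in wt and 855, 738 and 448 CPM in labelled ko, and the T cell markers to 28.1, 35.3 and 104 CPM in wt and 94.4, 233 and 83.5 CPM in labelled ko. The epithelial or carcinoma markers summed to 36.1, 138 and 80.4 CPM in wt and 192, 183 and 129 CPM in labelled ko.

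Lif was expressed in all 6 libraries and tended to be low in the same libraries as Il6. Lif read 101, 214 and 200.4 CPM in wt replicates 1 to 3, with a mean of 172 ± 61.6 (SD, n = 3). It read 99.3, 81.8 and 154 CPM in labelled ko replicates 1 to 3, with a mean of 112 ± 37.5 (SD, n = 3). The groups overlapped, since wt replicate 1 was as low as labelled ko replicate 1 while labelled ko replicate 3 lay between it and the other wt libraries. The estimated log2 fold change, labelled ko against wt, was -0.62 with a standard error of 0.33, and the labelled ko mean was 0.649 of the wt mean. Without wt replicate 1 the estimate was -0.90 ± 0.24 (SE), and without both wt replicate 1 and labelled ko replicate 3 it was -1.20 ± 0.15 (SE). It was smaller in size without wt replicate 2 (-0.44), wt replicate 3 (-0.51) or labelled ko replicate 2 (-0.45).

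Osm, the neighbor of Lif on the chromosome, is a cytokine made by activated macrophages, neutrophils and T cells, and it was lower on average in the libraries labelled ko. It read 866, 562 and 664 CPM in wt (mean 698 ± 155, SD, n = 3) and 376, 275 and 574 CPM in labelled ko (mean 408 ± 152, SD, n = 3). Labelled ko replicate 3 lay just above the lowest wt library, and the other libraries of that group lay below all 3 wt libraries. The log2 fold change was -0.77 (SE 0.29), and without wt replicate 1, which here was the highest library, it was -0.59 (SE 0.28). The neutrophil and macrophage marker sums were lowest in labelled ko replicate 2, as was Osm, and their part in the Osm values was not tested.

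Il6 varied more within each group than between them. Its wt libraries read 107, 352 and 254 CPM, a mean of 238 ± 123 (SD, n = 3). Its labelled ko libraries read 179, 129 and 282.5 CPM, a mean of 197 ± 78.2 (SD, n = 3). Wt replicate 1 was the lowest of all 6 libraries and wt replicate 2 the highest, so the wt group alone spanned the whole range. The estimate was -0.27 (SE 0.44) on the log2 scale, was -0.62 (SE 0.30) without wt replicate 1 and turned to 0.12 (SE 0.44) without wt replicate 2.

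Clcf1 encodes a cytokine that acts through the CNTF receptor and gp130. It was the 1 cytokine among the fitted members with a higher mean in the libraries labelled ko, at 34.6, 54.4 and 31.0 CPM against 22.6, 33.9 and 28.6 CPM in wt. The groups overlapped, with wt replicate 2 above labelled ko replicate 3, and labelled ko replicate 2 stood highest. Its log2 fold change was 0.50 (SE 0.25), 0.35 (SE 0.24) without wt replicate 1 and 0.20 (SE 0.21) without labelled ko replicate 2, the library with the highest T cell marker sum, whose part in the Clcf1 values was not tested. Il11, known as a cytokine of stromal cells, had counts of 1, 2 and 6 in wt and 6, 26 and 2 in labelled ko. In 3 of the 6 libraries it was at or under the limit of 3 counts, and no fold was computed.

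**Figure D1:**
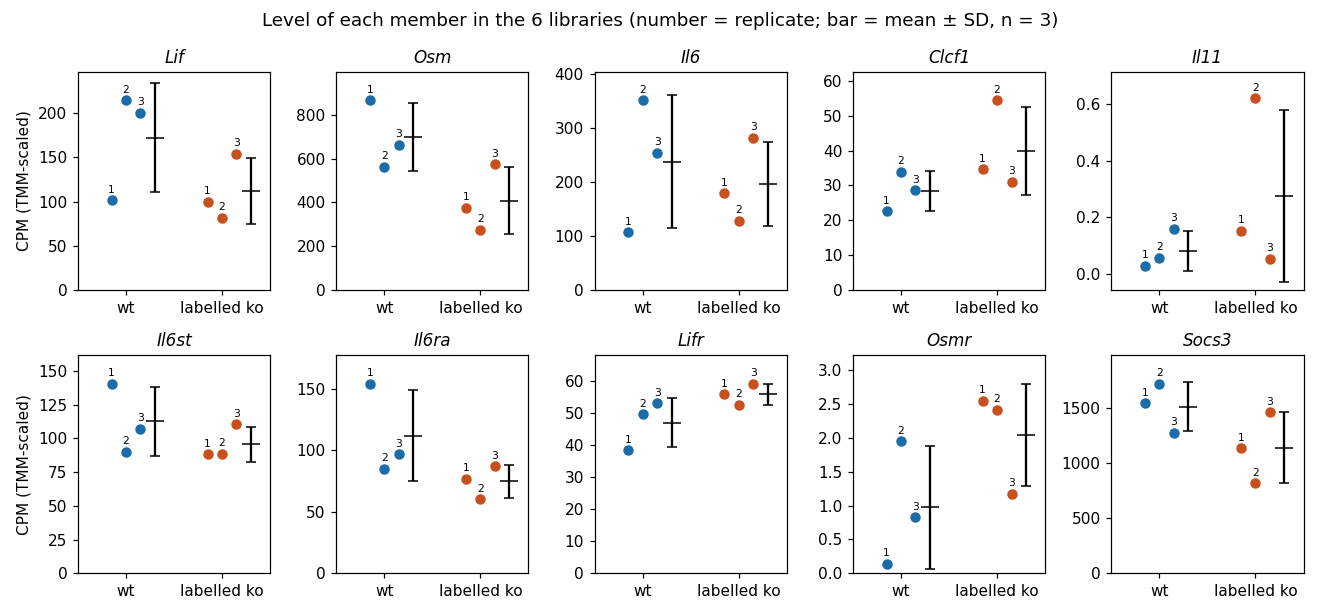
TMM-scaled CPM (vertical axis, own scale for each gene) of the 10 members in 3 wt (blue) and 3 labelled ko (orange) libraries, with replicate numbers at the points and the mean ± SD of each group as a bar. In all 10 panels the groups overlap, and wt replicate 1 is at the bottom of its group for Lif, Il6, Clcf1, Il11, Lifr and Osmr and at the top for Osm, Il6st and Il6ra.

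Among the receptors, the shared chain Il6st was the steadiest member but for Lifr in its span over the libraries. It read 141, 89.9 and 107 CPM in wt and 88.2, 88.4 and 111 CPM in labelled ko, with group means of 113 ± 25.8 and 95.7 ± 12.8 (SD, n = 3 each). The highest library exceeded the lowest 1.59-fold, and the groups overlapped, with wt replicate 1 alone above the rest. The log2 fold change of -0.23 (SE 0.19) became -0.05 (SE 0.15) without that library.

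Il6ra, which gives a cell its own binding site for IL-6 and is known from macrophages, neutrophils and hepatocytes, read 154, 85.0 and 96.9 CPM in wt and 77.0, 60.3 and 87.2 CPM in labelled ko. Labelled ko replicate 3 lay above wt replicate 2, so the groups overlapped, and wt replicate 1 was again far above the rest. The log2 fold change was -0.58 (SE 0.25), and without wt replicate 1 it fell in size to -0.28 (SE 0.17).

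Lifr, the chain that pairs with gp130 for LIF, was present in every library at 38.4, 49.6 and 53.1 CPM in wt and 55.9, 52.5 and 59.2 CPM in labelled ko. The highest library exceeded the lowest 1.54-fold. Only labelled ko replicate 2 lay below the highest wt library, and the overlap was by under 1 CPM. On the log2 scale the difference was 0.25 (SE 0.15), or 0.12 (SE 0.12) without wt replicate 1.

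Osmr, the chain that pairs with gp130 for OSM and is known chiefly from stromal and epithelial cells, had few counts. It had 5, 69 and 31 counts in wt and 100, 101 and 43 in labelled ko, or 0.141, 1.94 and 0.829 CPM against 2.54, 2.41 and 1.18 CPM. The groups overlapped through wt replicate 2, and the log2 fold change of 1.07 had a standard error of 0.78. Without wt replicate 1 the estimate was 0.56 (SE 0.50), and without wt replicate 2 it was 2.06 (SE 0.76). The 6 libraries stood in the same order by Osmr as by the summed fibroblast markers and by the summed epithelial or carcinoma markers given above, from wt replicate 1 as the lowest to labelled ko replicate 1 as the highest, and the part of RNA from either cell type in the Osmr values was not tested. Among the fibroblast markers Col3a1 read 19.0, 426 and 245 CPM in wt and 604, 474 and 308 CPM in labelled ko, and Col1a1 stayed between 0.561 and 5.52 CPM. Among the epithelial markers the keratin Krt8 read 9.90, 117 and 59.1 CPM in wt and 171, 165 and 105 CPM in labelled ko, and Epcam stayed between 0.0562 and 0.716 CPM. The markers of these lists did not all go the same way. Of 14 tested fibroblast markers 12 had a higher estimate in labelled ko, and Acta2 (log2 fold change -0.63) and Tagln (-0.30) a lower one. Of 4 tested epithelial markers 2 had a higher estimate, and Cdh1 (-0.41) and Krt7 (-1.03) a lower one.

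Socs3, the STAT3-induced inhibitor of gp130 signalling, was the most abundant member per length of transcript. It read 1543, 1720.1 and 1274 CPM in wt (mean 1512 ± 225, SD, n = 3) and 1134, 816 and 1460.5 CPM in labelled ko (mean 1137 ± 322, SD, n = 3). Labelled ko replicate 3 lay above wt replicate 3 and the other libraries labelled ko lay below all wt libraries, so the groups overlapped. The log2 fold change was -0.41 (SE 0.23) and -0.40 (SE 0.25) without wt replicate 1, but -0.23 (SE 0.20) without labelled ko replicate 2 and -0.64 (SE 0.22) without labelled ko replicate 3.

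Set beside each other per length of transcript, the members spanned nearly 4 powers of 10 in deposited FPKM, which are counts per length of the gene and per total of the library. Over the 6 libraries the means were 478 ± 85.4 FPKM (SD, n = 6) for Socs3, 291 ± 95.0 for Osm and 188 ± 74.4 for Il6. A middle group followed, with Il6ra at 27.3 ± 7.92, Lif at 25.0 ± 8.92, Clcf1 at 18.4 ± 7.57 and Il6st at 18.1 ± 2.80 FPKM. Lifr stood at 4.81 ± 0.867, Osmr at 0.287 ± 0.194 and Il11 at 0.0802 ± 0.108 FPKM. Socs3 exceeded Osm in 6 of 6 libraries and Osm exceeded Il6 in 5 of 6. Within the middle group the neighbors changed places, with Il6ra above Lif in 3, Lif above Clcf1 in 4 and Clcf1 above Il6st in 3 of the 6 libraries, so these 4 cannot be ordered beyond their spread. The steps from Il6 to Il6ra, from Il6st to Lifr, from Lifr to Osmr and from Osmr to Il11 held in all 6 libraries. By FPKM rank among the 22377 genes, Socs3 stood between 139 and 215, Osm between 180 and 378 and Lif between 1645 and 3388.

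**Figure D2:**
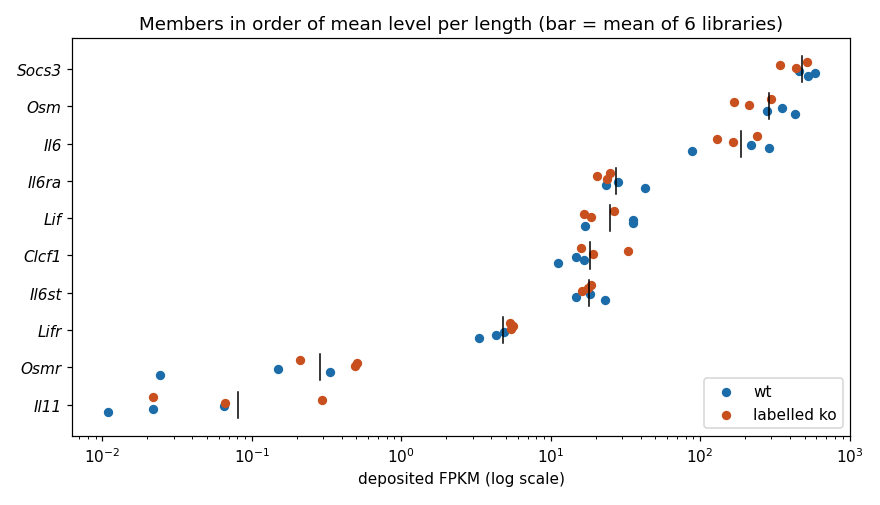
Deposited FPKM (horizontal log axis) of each member in the 3 wt (blue) and 3 labelled ko (orange) libraries, ordered by the mean of 6, drawn as a vertical bar. Socs3, Osm and Il6 stand above the other members in every library, Il6ra, Lif, Clcf1 and Il6st share 1 range, and Osmr and Il11 stay under 1 FPKM.

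Ratios of FPKM within a library do not depend on its scaling. The ratio of Il6ra to Il6st was 1.86, 1.60 and 1.53 in wt and 1.48, 1.16 and 1.34 in labelled ko, so all 3 wt libraries stood above all 3 labelled ko libraries. This was the 1 ratio of the 7 computed in which the groups did not overlap, and among all tested genes the ratio to Il6st did not overlap for 13.4% and was lower in every labelled ko library for 5.01%. The ratio of Lif to Osm was 0.0390, 0.127 and 0.101 in wt and 0.0881, 0.0994 and 0.0894 in labelled ko. The labelled ko ratios sat within the wt range, and wt replicate 1 was the library with least Lif for its Osm. The ratio of Il6 to Lif was 5.18, 8.04 and 6.21 in wt and 8.84, 7.71 and 8.99 in labelled ko, overlapping through wt replicate 2.

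Taken over the family, 6 of the 9 fitted members had a lower and 3 a higher estimate in labelled ko, with a median log2 fold change of -0.27, beside 0.02 and 6656 of 13884 lower (47.9%) over all genes tested. None of the 10 had groups that did not overlap, against 25.9% of all tested genes. With edgeR and an adjusted p under 0.05, 0 of the 9 members were called, as were 0 of 13884 genes (0%). At an unadjusted p under 0.05 the members called were Osm and Il6ra, 2 of 9, against 15.2% of all genes. Without wt replicate 1 the 1 member below that level was Lif, against 5.38% of all genes in the lower direction. DESeq2 on the same 6 libraries called 36 genes, or 0.263%, and 0 members. On the 4 libraries left without wt replicate 1 and labelled ko replicate 3, a choice taken from a reading of the study's heatmap that the labels do not settle, DESeq2 called 1284 genes and 4 members, all lower, while edgeR called 0 genes on those libraries and 3290 at an unadjusted p under 0.05. The 4 were Lif (log2 fold change -1.24), Osm (-0.95), Il6 (-1.02) and Socs3 (-0.66), and 6.23% of all genes were called lower in that fit. The members were proposed with this contrast known, so these counts are given beside their background and nothing is read from them.

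**Figure D3:**
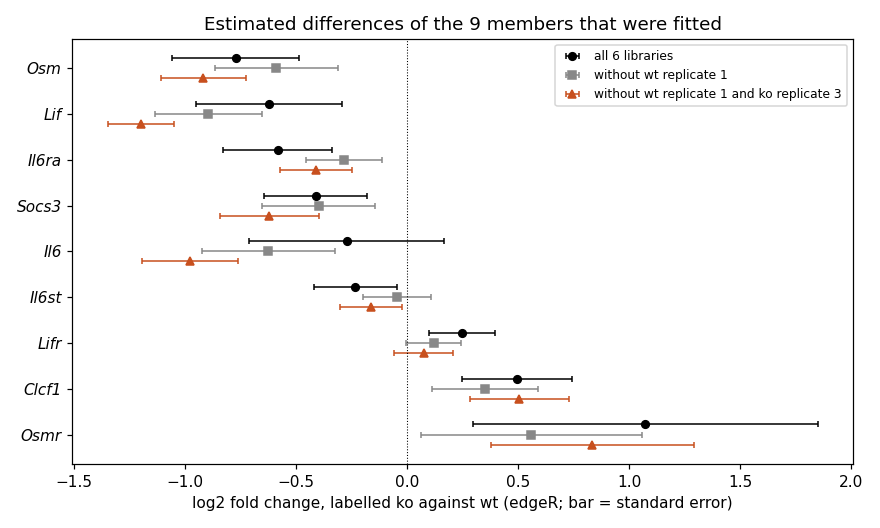
Estimated log2 fold change of each fitted member, labelled ko against wt (horizontal axis; bar = standard error, edgeR), from all 6 libraries (black), without wt replicate 1 (gray) and without wt replicate 1 and ko replicate 3 (orange). Lif and Il6 lie farther below 0 when those libraries are left out, and Il6ra and Il6st lie closer to 0. Directions in the plot hold for this scaling, and Il6, Il6st and Socs3 turn above 0 when libraries are scaled to the macrophage markers, a scale on which the median of all genes is 0.60.

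Scaling the libraries to the summed macrophage markers, a choice made after the data were seen, moved the median log2 fold change of all genes from 0.02 to 0.60. Lyz2 alone made up most of the summed markers in each library. It gave 14144 of 21866 CPM in wt replicate 1 and 5667 of 9764 CPM in labelled ko replicate 2. On that scale Lif stood at -0.17, Osm at -0.26 and Il6ra at -0.01, while Il6 (0.15), Il6st (0.34) and Socs3 (0.10) turned positive, all below that median. Lifr (0.79), Clcf1 (1.12) and Osmr (1.64) lay above it. For each 1000 CPM of macrophage markers there were 39.6, 32.0 and 40.4 CPM of Osm in wt and 30.0, 28.1 and 35.3 CPM in labelled ko. Il6st gave 6.43, 5.12 and 6.52 CPM in wt and 7.04, 9.05 and 6.80 CPM in labelled ko. On this scale 2 of the 10 members, Il6st and Lifr, had groups that did not overlap, both higher in labelled ko, against 35.8% of all tested genes.

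The members did not move as 1 block over the libraries. Lif and Il6 rose and fell together, with a Pearson r of 0.89 over the 6 libraries and 0.94 over the 5 without wt replicate 1. Osm went with Il6ra (r = 0.92, and 0.97 without wt replicate 1), with Il6st (0.83 and 0.72) and with Socs3 (0.83 and 0.84). Osm and Lif had an r of 0.50 over 6 libraries and 0.94 over 5, because wt replicate 1 was the highest library for Osm and among the lowest for Lif. Clcf1 ran opposite to Osm (-0.95, and -0.92 without wt replicate 1), and Osmr ran opposite to Il6st (-0.97 and -0.93). These values of r describe log2 CPM, and all members of a library share its depth, scaling and mixture of cells.

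**Figure D4:**
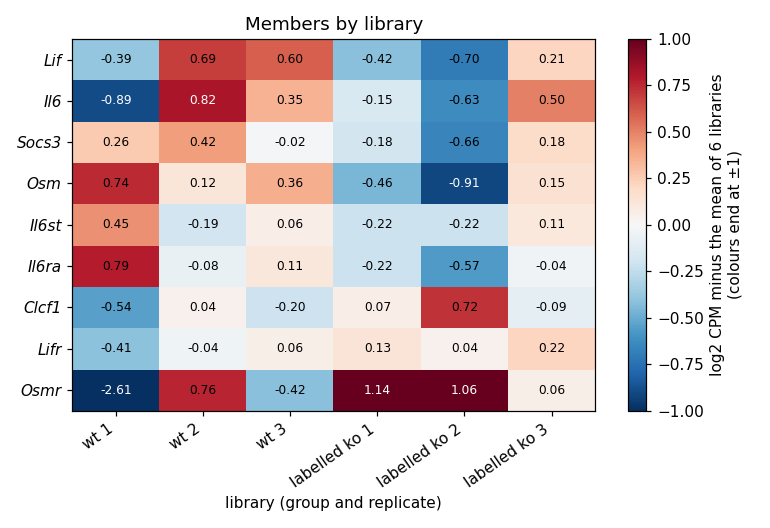
Deviation of log2 CPM from the member's mean over the 6 libraries (color, with the value printed) for the 9 fitted members (rows) in each library (columns). Wt replicate 1 is above the mean for Osm, Il6st, Il6ra and Socs3 and below it for Lif, Il6, Clcf1, Lifr and Osmr, and labelled ko replicate 2 has the lowest values of Lif (-0.70), Socs3 (-0.66) and Osm (-0.91).

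Among 8092 genes with a mean of at least 10 CPM, those most like Lif over the 6 libraries were Ghitm, Mindy3, Vcan, Agpat5 and Atp6v1d, with r between 0.98 and 0.99. Vcan, which encodes the matrix proteoglycan versican, read 1076, 1771 and 1872 CPM in wt and 1134, 915 and 1597 CPM in labelled ko, with the same 3 libraries high as for Lif. Those most unlike Lif were Phlpp1 (-0.99), Smg6 (-0.97) and Mrpl9 (-0.97). Of the 5 genes most like Lif, 0 were among the 5 most like Osm, Il6st or Socs3. With 6 libraries and this many genes, values of r of this size describe the ranking only.

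The other genes of the pathway were counted from lists chosen by role, but with earlier results of these data known. Their counts are therefore given as a description beside the share of all genes, and nothing is read from them. Across all of them 0 genes had an adjusted p under 0.05 in edgeR, and the counts below are at an unadjusted p under 0.05, which 8.31% of all genes reached in the lower direction. Of the other gp130 ligands 3 were tested, and Ebi3, a subunit of IL-27, was lower at that threshold, with 26.6, 20.2 and 18.5 CPM in wt and 14.7, 12.5 and 16.3 CPM in labelled ko (log2 fold change -0.59, SE 0.19, and -0.42, SE 0.17, without wt replicate 1). Its partner Il27 had an estimate of -0.10 (SE 0.28), and the cardiotrophin gene Ctf1, at 1.04 CPM or less, one of 1.24 (SE 0.77). Of the other receptors of the family, Il11ra1, Il27ra and Il31ra were tested and 0 passed in either direction. The medians of these short lists, like that of the shedding genes below, changed sign with the scaling or with 1 library left out and give no direction.

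Of the 12 JAK, STAT and adaptor genes 10 had a lower estimate and 4 passed, with a list median of -0.32 beside 0.02 over all genes, and without wt replicate 1 the numbers were 11, 2 and -0.14. Stat3 itself read 505, 366 and 351 CPM in wt and 290.4, 296 and 316 CPM in labelled ko, with no overlap of the groups and a log2 fold change of -0.44 (SE 0.16). Without wt replicate 1 that estimate was -0.26 (SE 0.13) and did not pass. The adaptors Grb2 (-0.38, SE 0.15) and Gab2 (-0.41, SE 0.13) also passed, and without wt replicate 1 Gab2 still passed (-0.37, SE 0.14) but Grb2 did not (-0.27, SE 0.15). The receptor-linked kinases Jak1 and Jak2 had estimates of -0.12 (SE 0.11) and 0.30 (SE 0.15) and did not pass. Of these 12 genes, 8 had groups that did not overlap, beside the 25.9% of all genes. The same count was 1 of 3 other ligands, 0 of 3 other receptors, 5 of 12 negative regulators, 1 of 4 shedding genes and 9 of 25 genes of the STAT3 response.

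Of the 12 other negative regulators 7 had a lower estimate and 2 passed, and the median was -0.06. With limma on FPKM plus 1 and plus 0.1 and on the scale of the macrophage markers this median was 0.05, 0.08 and 0.54, below the medians of 0.09, 0.16 and 0.60 over all genes in the same fits. Without wt replicate 1 and labelled ko replicate 3 it was 0.06 with edgeR and 0.02 with DESeq2. These lay above the medians over all genes, 0.04 and -0.0009. The 2 that passed were the phosphatases Ptpn6 (log2 fold change -0.94, SE 0.29), which encodes SHP-1, and Ptpn1 (-0.63, SE 0.23). Without wt replicate 1 only Ptpn6 passed (-0.65, SE 0.23), and Ptpn1 was at -0.37 (SE 0.17). Socs1, the relative of Socs3 that answers chiefly to interferons, had 13.5, 16.3 and 10.4 CPM in wt and 18.5, 24.0 and 15.4 CPM in labelled ko, an estimate of 0.53 (SE 0.23) that did not pass. Of the 4 genes for shedding of receptors and ligands, Rhbdf2 was lower at the threshold (-0.44, SE 0.13), and the protease Adam17, which releases IL-6R alpha from the cell surface, had an estimate of -0.09 (SE 0.13).

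Of 25 genes of the STAT3 response 22 had a lower estimate, 8 passed as lower, 0 as higher, and the median was -0.40. Those that passed with all 6 libraries were Bcl3, Cebpb, Cebpd, Il4ra, Lrg1, Sbno2, Bcl6 and Stat3. Without wt replicate 1 the estimates were lower for 20, 7 passed as lower, and the median was -0.30. Only 4 genes, Bcl3, Cebpb, Lrg1 and Sbno2, passed in both fits, while Cebpd, Il4ra, Bcl6 and Stat3 were lost and Il1rn, Saa3 and Batf were added. Sbno2, a corepressor known from the response to IL-10, read 568, 365 and 343 CPM in wt and 248, 234 and 264 CPM in labelled ko (-0.77, SE 0.20, and -0.51, SE 0.13, without wt replicate 1). Cebpb, a transcription factor of myeloid cells, read 1772, 1168 and 1098 CPM in wt and 774, 529 and 989 CPM in labelled ko (-0.82, SE 0.28, and -0.57, SE 0.24, without wt replicate 1). The growth gene Myc went against the list, with 60.5, 261 and 178 CPM in wt and 401, 387 and 241 CPM in labelled ko (1.05, SE 0.47), and did not pass, but passed as higher without wt replicate 1, at 0.64 (SE 0.25). Stat3 belongs to this list and to the one before. The macrophage markers, which are lower in labelled ko as given above, had a median of -0.55 in the same fit, and their part in the medians of these lists was not tested. On the scale of the macrophage markers the STAT3 response median was 0.16, below the median of 0.60 over all genes. The table's own pathway column places 153 genes in JAK-STAT signaling, all 10 members among them. Of these 114 were tested, 67 had a lower estimate and the median was -0.12.

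**Figure D5:**
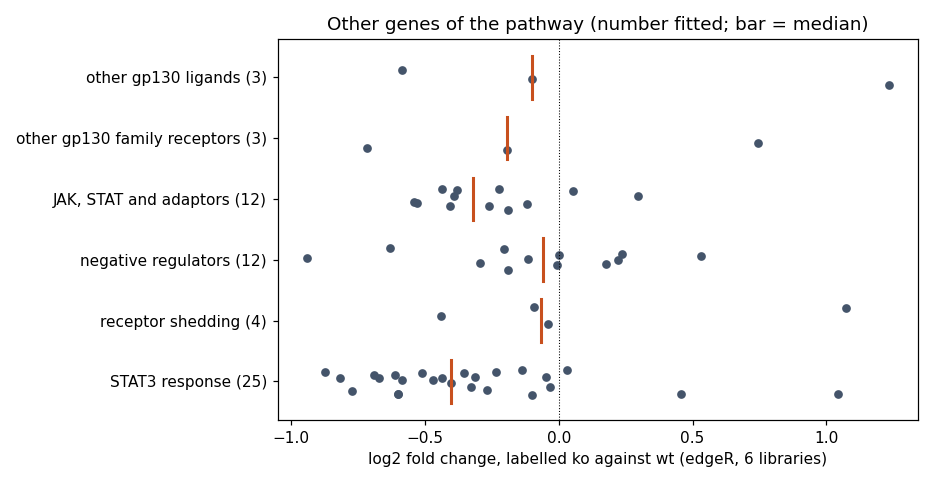
Log2 fold change of each tested gene, labelled ko against wt (horizontal axis, edgeR, all 6 libraries), in 6 lists of the gp130 pathway (vertical axis, number of tested genes in brackets), with the list median as a bar. The JAK, STAT and adaptor list (-0.32) and the STAT3 response list (-0.40) have the lowest medians with all 6 libraries. Without wt replicate 1 the JAK, STAT and adaptor median is -0.14, above that of the shedding genes (-0.21), and the STAT3 response median is -0.30. Scaled to the macrophage markers the list medians lie above 0, between 0.16 and 0.54, and below the median of 0.60 over all genes.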

How the data were processed

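RNA sequencing was performed on 6 mouse libraries, 3 labelled wt and 3 labelled ko. The authors deposited whole-number read counts per gene, without normalization, and FPKM values, which follow from the same counts once a fixed gene length and the library total are divided out (largest relative deviation 9.3e-06). The submitters' processing notes name the genome build mm10. The aligner, the counting tool and the annotation are not given in the sources used here. Sorting, amplification of cDNA and the sort markers can change how other cells contribute to these values.

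Counts were filtered with filterByExpr, scaled by TMM and compared with the quasi-likelihood test of edgeR 4.0.16 in R 4.3.3 over 13884 genes, with Benjamini-Hochberg adjustment. CPM are TMM-scaled, log2 CPM used a prior count of 2, and standard errors come from the same fit. DESeq2 1.42.0, limma 3.58.1 on log2 FPKM plus 1 or plus 0.1, other scalings and filters, the replicate block and each library left out were alternatives, and the edgeR script was tested on simulated data. Leaving out wt replicate 1 and ko replicate 3 together was carried over from earlier work on these data, which took a heatmap of the study to show the other 4 libraries, and the labels do not say which libraries it shows. Scaling to macrophage markers was added after the data were seen. The members and lists were chosen with earlier results of these data known. Besides the members, the genes named were those of the lists, the study's genes, cell type markers, and the 5 most and 3 least like Lif. The lists for epithelial, endothelial, B, dendritic and mast cells had a median log2 fold change of 0.17, 0.71, 0.00, -0.03 and 0.19. All value columns were mapped to a library. Ctf2, Cntfr, Cldn3, Cldn7 and Trac were on the lists but were not found under these symbols among the genes counted, so they were not analysed. Coordinates are those of GENCODE for GRCm38, and promoters are those of RefSeq for GRCm38.p6.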

Additional observations from a re-analysis of the deposited data

How the results depend on the processing

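No member was called in edgeR under any of its alternatives, and Lif stayed lower in labelled ko under all 17. The number of genes called was 36 with DESeq2 and 1284 with DESeq2 without wt replicate 1 and ko replicate 3, a range of 0 to 1284 over all fits that left out libraries. In that last fit 4 members were called, a range of 0 to 4. Lif stood there at -1.24 on the log2 scale (DESeq2 adjusted p = 1.99e-08, against an edgeR adjusted p of 0.101 on those libraries). For Lif, wt replicate 1 was the lowest wt library and ko replicate 3 the highest labelled ko library. The members were put forward with this contrast known, so the p-value supports nothing. The estimate of -1.24 was the end of the range of Lif, -1.24 to -0.44, over the fits that left out libraries. edgeR called 0 genes on the same 4 libraries, and the cause of the difference between the tools was not tested. The estimate of Il6 turned to 0.12 without wt replicate 2. Its range over the fits that left out libraries was -1.02 to 0.12 (-0.98 with edgeR on the same 4 libraries). Scaled to the macrophage list, which moves the median of all genes to 0.60, Lif stood at -0.17, the value closest to no difference among its fits. On that scale Il6 stood at 0.15, Il6st at 0.34 and Socs3 at 0.10.

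With the replicate block Lif was at -0.60, 0 genes passed the adjusted threshold and 1606 passed without adjustment, against 2112 with no block. The library titles give a replicate number but state no pairing. The deviations of the same-numbered libraries correlated at -0.24, 0.06 and -0.34, which with 3 libraries a group cannot show whether the numbers pair them. Limits are the 3 libraries a group, the library wt replicate 1 that stands apart, and counts too low for Il11. Osmr rests on 5 to 101 counts a library.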
